A study of Mus musculus with 70 samples.

Results

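The 9 genes described here encode structural proteins of the myelin sheath (Mbp, Mobp, Mog, Mag, Cnp, Cldn11 and Mal) and enzymes that make its characteristic lipids (Ugt8a and Gal3st1). They were chosen by function, with earlier results of these data known. They were found by symbol among the 50789 genes of the count table, where all 9 were present. The mice lacked either isoform of the transcriptional repressor Capicua, the product of Cic: the short one in Cic-S-KO and the long one in Cic-L-KO. Wild-type littermates (WT) were the controls, and polyadenylated RNA of whole tissue was sequenced. The samples were lung at postnatal day 6 (8 WT, 8 Cic-S-KO and 8 Cic-L-KO) and the cortex and cerebellum of 12-week adults (8 WT, 7 Cic-S-KO and 8 Cic-L-KO in each region). The WT groups pooled littermates of both lines, so neither knockout could be set against WT animals of its own line alone. How each isoform was removed, the strain and the sex of the animals are not given in the sources used here.

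Myelin is the membrane that oligodendrocytes wrap around axons of the brain and spinal cord. Myelin basic protein (Mbp, at chr18:82475146-82585637 on the plus strand of GRCm38) holds the cytoplasmic faces of the layers together, and Mobp is a further small basic protein of compact myelin. Mog is a glycoprotein of the outermost surface of the sheath, Mag an adhesion glycoprotein of the innermost surface that faces the axon, and Cnp an enzyme of the cytoplasmic channels that stay open within the sheath. Cldn11 forms the tight junctions between the wraps, and Mal is a membrane protein that sorts cargo to lipid-rich membrane. Ugt8a makes galactosylceramide, the abundant glycolipid of myelin, and Gal3st1 adds sulfate to it to give sulfatide.

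In the GENCODE M21 annotation of the GRCm38 build, all 9 are protein-coding genes. Mobp spans chr9:120149707-120181484 on the plus strand, Mog chr17:37010743-37023398 on the minus strand, and Mag chr7:30899176-30914873 on the minus strand. Cldn11 spans chr3:31149920-31164324 on the plus strand, and Ugt8a lies on the same chromosome at chr3:125865271-125938619 on the minus strand. Cnp spans chr11:100574904-100591729 and Gal3st1 chr11:3983636-3999326, both on the plus strand. Mal spans chr2:127633226-127656695 on the minus strand. The counts were made per gene, over all its exons together. Cnp shares 154 exon bases with Dnajc7 on the opposite strand, and since the sources used here do not state whether counting used strand, its counts may hold Dnajc7 reads. Mobp shares 79 exon bases with the transcript Gm38642 on its own strand.

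Promoter sequences are shown for the genes called against WT in a knockout brain region and for Mobp, which was called in none, because Capicua represses genes by binding an octamer in DNA. RefSeq windows (GRCm38.p6) reaching from 250 bases before to 50 bases after a start site were found for 8 of the 9 genes, 12 windows in all, and Mbp was not among them. They were searched on both strands for the Capicua octamers TGAATGAA, TGAATGGA, TCAATGAA and TCAATGGA, for the SOX cores ACAAAG and ACAATG, and for the MYRF core CTGGCAC. SOX10 and MYRF are the transcription factors that drive myelin genes in oligodendrocytes. In each sequence below, written 5′ to 3′ on the strand of the gene, capitals mark these motifs. Only bases before the start site that no annotated exon covers are shown. Where a gene had several windows, a single window is shown. For Gal3st1 it is that of an internal transcript, which holds a Capicua octamer, while its windows at the annotated start of the gene hold none.
Mog, chr17:37023399-37023648, minus strand: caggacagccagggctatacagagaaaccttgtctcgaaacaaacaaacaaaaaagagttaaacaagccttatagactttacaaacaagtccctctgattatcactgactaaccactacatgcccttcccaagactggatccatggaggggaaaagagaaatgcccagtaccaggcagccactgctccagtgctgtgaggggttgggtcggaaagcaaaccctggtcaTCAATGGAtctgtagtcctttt
Gal3st1, chr11:3989683-3989932, plus strand: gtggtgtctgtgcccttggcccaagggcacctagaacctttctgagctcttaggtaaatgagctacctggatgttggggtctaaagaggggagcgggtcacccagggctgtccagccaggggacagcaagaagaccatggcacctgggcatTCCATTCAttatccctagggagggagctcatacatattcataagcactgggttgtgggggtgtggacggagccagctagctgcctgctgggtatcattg
Mag, chr7:30914874-30915113, minus strand: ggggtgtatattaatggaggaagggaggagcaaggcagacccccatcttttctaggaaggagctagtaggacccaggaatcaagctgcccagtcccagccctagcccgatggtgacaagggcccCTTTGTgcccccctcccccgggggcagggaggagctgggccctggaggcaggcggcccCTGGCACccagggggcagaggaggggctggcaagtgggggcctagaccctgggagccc
Mobp, chr9:120149492-120149706, plus strand: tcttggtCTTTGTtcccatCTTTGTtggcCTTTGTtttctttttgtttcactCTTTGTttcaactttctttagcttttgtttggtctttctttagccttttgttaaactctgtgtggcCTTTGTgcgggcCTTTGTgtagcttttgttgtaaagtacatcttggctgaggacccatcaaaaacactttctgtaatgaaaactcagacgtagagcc
Cldn11, chr3:31149670-31149919, plus strand: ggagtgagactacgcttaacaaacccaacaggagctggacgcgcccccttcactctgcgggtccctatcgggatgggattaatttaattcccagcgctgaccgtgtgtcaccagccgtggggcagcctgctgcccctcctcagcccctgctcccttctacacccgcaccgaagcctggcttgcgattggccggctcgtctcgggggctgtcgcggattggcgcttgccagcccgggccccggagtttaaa
Mal, chr2:127656696-127656945, minus strand: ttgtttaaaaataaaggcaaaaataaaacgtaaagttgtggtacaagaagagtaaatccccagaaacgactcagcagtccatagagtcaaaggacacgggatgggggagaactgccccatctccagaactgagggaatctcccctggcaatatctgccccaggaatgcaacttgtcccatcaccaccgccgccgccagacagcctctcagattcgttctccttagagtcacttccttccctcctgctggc

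A Capicua octamer was found in 2 of the 12 windows. In Mog it is TCAATGGA on the gene's strand, whose first base lies 22 bases before the start site. In Gal3st1 it is TGAATGGA on the opposite strand, read here as TCCATTCA from 99 bases before the start site of an internal transcript. Of all 32851 mouse windows of this length, 3.84% hold at least 1 of the 4 octamers. A SOX core was found in 6 windows of 4 of the genes (Mobp, Mag, Cnp and Gal3st1), beside 28.6% of all windows, and Mobp held 6 copies of CTTTGT, the reverse complement of ACAAAG. The MYRF core lay in Mag and in Cnp, in 3 windows, beside 5.01% of all windows. A pair of Mag windows overlap and hold the same CTGGCAC and CTTTGT, and a pair of Gal3st1 windows overlap and hold the same ACAATG, so those single sites are counted more than once. No motif overlapped another in the sequences shown. These matches describe the letters of the windows, and binding was not measured here.

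The libraries held between 17798655 and 35523037 counted reads. Of the listed marker genes, the lung epithelium genes summed to between 17680.2 and 25569.7 CPM (counts scaled to the size of the library) in lung and to at most 33.1 in the brain, and the cerebellum genes to at least 1891 CPM in cerebellum and at most 54.7 in cortex, so the tissues matched their labels. Cic itself, counted over all its transcripts, was higher in both knockout cortices (Cic-S-KO 250.6 ± 7.64 CPM, Cic-L-KO 297.7 ± 17.0, SD) than in WT cortex (161.6 ± 8.62). A count per gene cannot show the loss of a single isoform, and it checks no genotype label. The labels put the lung samples in batch 1 and the brain samples in batch 2, so tissue, age and batch cannot be told apart between lung and brain.

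In WT brain the sheath genes spanned a wide range of levels. Per kilobase of exon, which allows genes to be compared, Mbp was the highest in cortex at 292.2 ± 33.4 CPM per kb (SD, n = 8), followed by Mobp at 114.7 ± 11.6, Cnp at 92.5 ± 10.2, Mal at 89.4 ± 9.67 and Cldn11 at 76.9 ± 8.21. Mag stood at 37.8 ± 3.22 CPM per kb, Mog at 32.3 ± 3.72, Ugt8a at 13.03 ± 1.90 and Gal3st1 at 4.74 ± 0.337. From Mobp to Cldn11, each gene's samples overlapped those of the next in this order, as did Mag and Mog. Mbp stood above all the others without overlap, and Ugt8a and Gal3st1 lay below the structural proteins without overlap.

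The same genes differed between the regions of WT mice, and not all in the same direction. In edgeR's quasi-likelihood test with Benjamini-Hochberg adjustment over 18032 genes, in which 35.4% of genes were higher in cortex and 38.2% lower (73.5% in all), 5 sheath genes were lower in cortex than in cerebellum and 3 were higher. Among the compact myelin genes, Mbp stood at 2552 ± 289 CPM in cortex and 3649 ± 693 in cerebellum (normalised over both regions, SD, n = 8), a log2 difference of -0.52 (SE 0.095, adjusted p = 6.15e-06). Cnp was lower in each of the 8 WT cortex samples than in every cerebellum sample (347.1 ± 38.0 against 481.3 ± 37.9 CPM, log2 difference -0.47, adjusted p = 6.87e-08). Ugt8a (-0.50), Mobp (-0.30) and Mag (-0.29) were lower in cortex too. The higher genes were Mal, at 256.0 ± 27.3 against 180.3 ± 27.7 CPM (0.51, SE 0.108, adjusted p = 6.19e-05), Gal3st1 (0.28) and Cldn11 (0.26). For Mog the log2 difference was -0.12 (95% interval -0.32 to 0.07). The enzymes of sulfatide synthesis thus stood on opposite sides, Ugt8a lower and Gal3st1 higher in cortex. Of the 11 tested genes listed as mature oligodendrocyte genes outside the sheath, 8 were lower in cortex and none was higher.

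**Figure D1:**
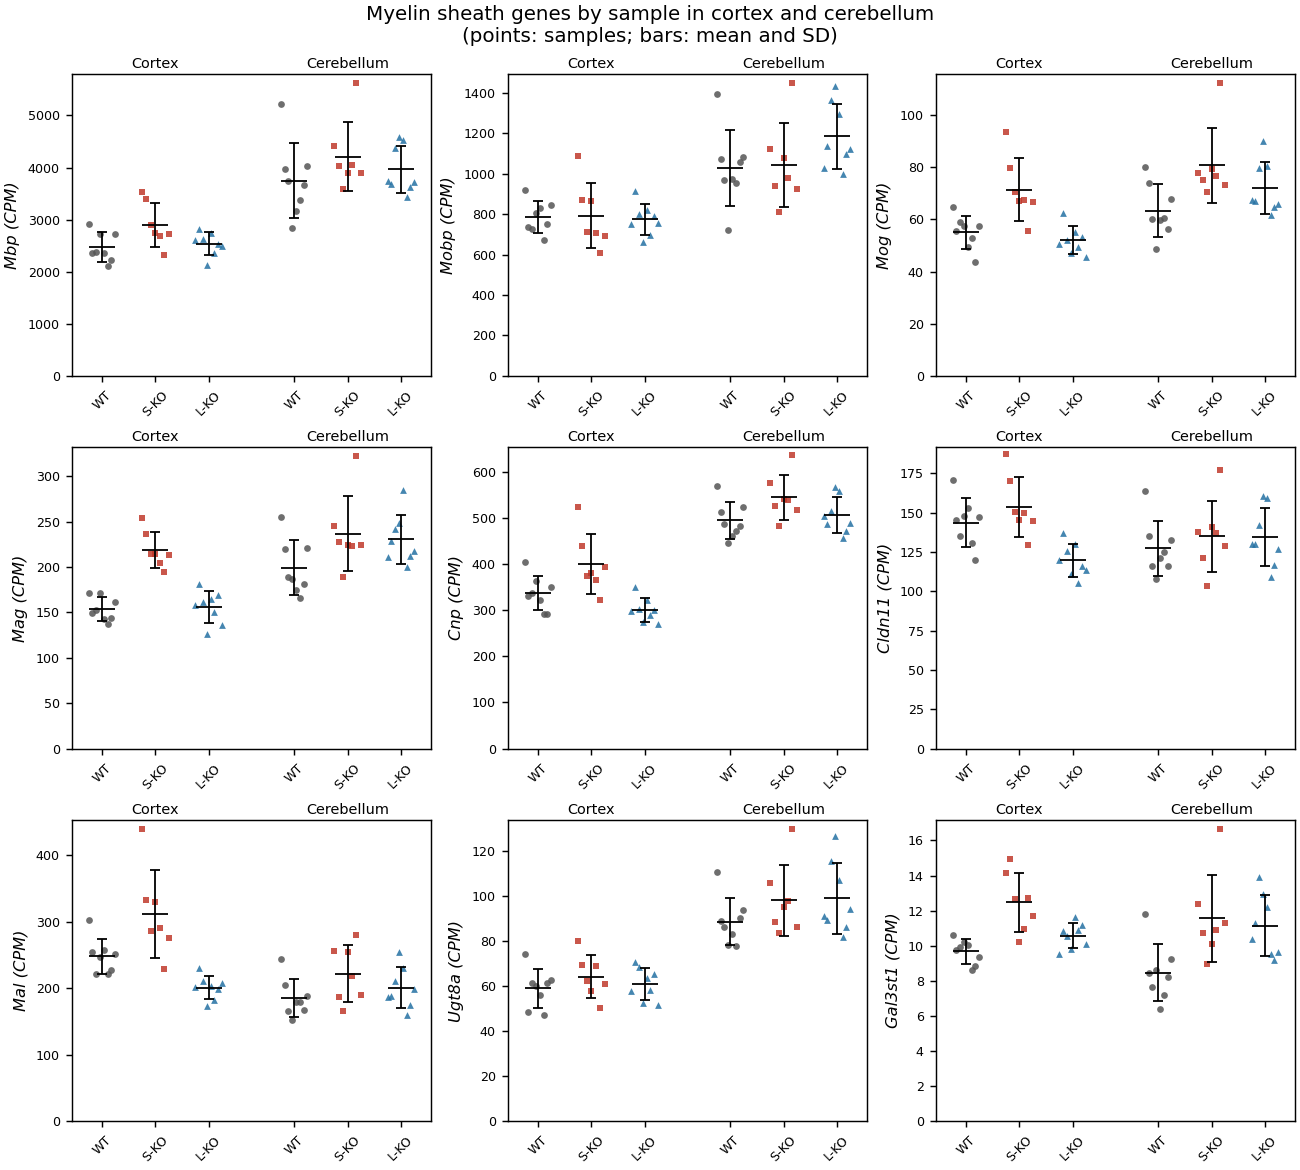
Level of each sheath gene in every cortex and cerebellum sample, in TMM-normalised CPM on linear axes that start at 0; points are samples (WT, Cic-S-KO shown as S-KO, Cic-L-KO shown as L-KO) and black bars the mean and SD. In cortex all 7 Cic-S-KO points of Mag lie above the WT points, and 7 of 8 Cic-L-KO points of Mal lie below them.

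In the Cic-S-KO cortex, the surface glycoproteins Mag and Mog and the sulfatide enzyme Gal3st1 rose, while the other 6 genes did not pass the test. These 3 of 9 calls stand beside 2.83% of all 16974 tested genes called higher in this comparison and 3.70% called lower, 6.53% in all. The log2 fold change was above 0 for 9 of 9 genes, with a median of 0.25 beside -0.00087 over all genes tested. The 9 genes moved together from library to library, so their signs are not independent of each other.

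Mag in WT cortex was 171.2, 149.7, 152.3, 171.8, 142.9, 136.8, 144.3 and 161.6 CPM in the 8 samples. In the 7 Cic-S-KO samples it was 253.5, 236.7, 214.7, 214.8, 203.8, 194.4 and 213.2 CPM. Every knockout sample lay above every WT sample, by at least the distance from 171.8 to 194.4 CPM. The means were 218.7 ± 20.04 and 153.8 ± 13.1 CPM, a log2 fold change of 0.51 (SE 0.069, edgeR adjusted p = 9.45e-05). Mag ranked 20th by p among the 16974 genes, and it alone of the 9 changed by at least 0.5.

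Mog, the outer surface glycoprotein, ranged in WT cortex from 43.7 to 64.6 CPM with a median of 56.4, and in the Cic-S-KO cortex from 55.4 to 93.3 with a median of 67.3. The groups overlapped in 1 knockout sample, and 6 of 7 lay above all WT samples. The log2 fold change was 0.38 (SE 0.091, edgeR adjusted p = 0.0171).

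Of the lipid enzymes, Gal3st1 ranged from 8.61 to 10.6 CPM in WT (median 9.86) and from 10.2 to 14.9 in Cic-S-KO (median 12.6). Again 6 of 7 knockout samples lay above all WT samples, and the log2 fold change was 0.37 (SE 0.075, edgeR adjusted p = 0.0045). Ugt8a, which acts before Gal3st1 in the same pathway, gave a log2 fold change of 0.12 (95% interval -0.07 to 0.32), with 64.4 ± 9.57 CPM in Cic-S-KO and 59.1 ± 8.61 in WT.

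The genes of compact myelin, the cytoplasmic channels and the junctions gave smaller or more variable differences. For Mbp the log2 fold change was 0.23 (95% interval 0.06 to 0.39, edgeR adjusted p = 0.106), for Cnp 0.25 (0.08 to 0.41, adjusted p = 0.0805) and for Mal 0.33 (0.13 to 0.53, adjusted p = 0.0533). Mal was the most spread, from 229.1 to 439.4 CPM in Cic-S-KO. For Cldn11 it was 0.10 (-0.05 to 0.24). Mobp was nearest to no change, at 792.2 ± 162 CPM against 785.9 ± 79.1 in WT, a log2 fold change of 0.01 (95% interval -0.19 to 0.21). DESeq2 called 6 of the 9, adding Mbp, Cnp and Mal to the 3 called by edgeR. In counts simulated for this comparison, 12.1% of the DESeq2 calls were false, beside 4.44% of the edgeR calls.

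Of the markers of other brain cell types, 0 of 7 astrocyte, 0 of 7 microglia and 0 of 5 endothelial genes were called between the same groups. Neuron marker levels differed in their sum. The summed neuron markers (8 of 8 tested, none at 0) ranged from 7738 to 8357 CPM in WT and from 6914 to 7572 in Cic-S-KO cortex without overlap. Gene by gene, 2 of the 8 were called lower and none higher, with a median log2 fold change of -0.01, and their part in the result was not tested. The 11 mature oligodendrocyte genes outside the sheath summed to between 572.6 and 807.0 CPM in WT and between 641.1 and 855.3 in Cic-S-KO, which overlap. With the mean log2 level of those genes as a covariate, Mag (0.42, edgeR adjusted p = 7.95e-07), Mog (0.27, adjusted p = 0.00846) and Gal3st1 (0.30, adjusted p = 0.00896) remained higher. The covariate genes are not confined to oligodendrocytes, since they summed to 1283 ± 51.4 CPM in WT lung and 666.1 ± 68.5 in WT cortex. Of the 11, 1 was itself called higher (0.70) and 1 lower (-0.36) between these groups. Here and below, the covariate thus stands for the level of these genes and not for oligodendrocyte content alone. In whole tissue, a change in the number of oligodendrocytes and a change in RNA per oligodendrocyte cannot be told apart.

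In the Cic-L-KO cortex, the tight junction gene Cldn11 and the sorting protein gene Mal fell, and the other 7 genes did not pass the test. In this comparison 21.9% of all tested genes were called lower, 21.4% higher and 43.2% were called in all, so 2 of 9 is near the background. Mal ranged from 221.2 to 303.4 CPM in WT (median 249.5) and from 173.4 to 230.1 in Cic-L-KO (median 202.6). Cic-L-KO samples lay below all WT samples in 7 of 8 cases, and the log2 fold change was -0.30 (SE 0.098, edgeR adjusted p = 0.0162). Cldn11 ranged from 120.2 to 170.8 CPM in WT (median 146.2) and from 105.4 to 136.9 in Cic-L-KO (median 118.1). The groups overlapped more than for Mal, with 5 of 8 knockout samples below all WT samples, and the log2 fold change was -0.26 (SE 0.072, edgeR adjusted p = 0.00465).

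Mag, which rose in the other knockout, stood at 155.8 ± 18.03 CPM in the Cic-L-KO cortex beside 153.8 ± 13.1 in WT, with a log2 fold change of 0.02 (95% interval -0.11 to 0.15). The intervals were -0.12 to 0.20 for Mbp, -0.21 to 0.17 for Mobp, -0.26 to 0.09 for Mog and -0.14 to 0.24 for Ugt8a. For Gal3st1 the log2 fold change was 0.13 (edgeR adjusted p = 0.166) and for Cnp -0.16 (adjusted p = 0.118). The median over the 9 genes was -0.02. Summed neuron markers were lower here as well, between 5689 and 6595 CPM, with 5 of 8 called lower, while 2 of 7 astrocyte, 2 of 7 microglia and 2 of 5 endothelial markers were called higher. None of these markers was at 0, and their part in the result was not tested. The summed oligodendrocyte genes ranged from 574.6 to 743.6 CPM, within the WT range, and with their mean level as a covariate Cldn11 (-0.29, edgeR adjusted p = 3.45e-06), Mal (-0.33, adjusted p = 0.00032) and also Cnp (-0.19, adjusted p = 0.000737) were lower.

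Set directly against each other, the cortices of the knockouts differed in 6 of the 9 genes, all higher in Cic-S-KO. Of all genes tested, 17.4% were called higher, 16.5% lower and 33.9% were called in this comparison. Mal showed the greatest difference, 312.1 ± 66.1 CPM in Cic-S-KO against 201.3 ± 17.4 in Cic-L-KO (log2 0.63, SE 0.101, edgeR adjusted p = 3.97e-05). Mag differed by 0.49 (adjusted p = 3.87e-06, 7 of 7 samples above all Cic-L-KO samples), Mog by 0.46, Cnp by 0.41, Cldn11 by 0.36 and Gal3st1 by 0.24. For Mbp the difference was 0.19 (95% interval 0.03 to 0.36, edgeR adjusted p = 0.0849), for Ugt8a 0.08 (-0.12 to 0.27) and for Mobp 0.03 (-0.16 to 0.23). The comparison has no WT samples in it. The comparisons with WT share the WT samples and are given side by side: Mal 0.33 and -0.30, Cldn11 0.10 and -0.26, Cnp 0.25 and -0.16, Mag 0.51 and 0.02, for Cic-S-KO and Cic-L-KO in turn.

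**Figure D2:**
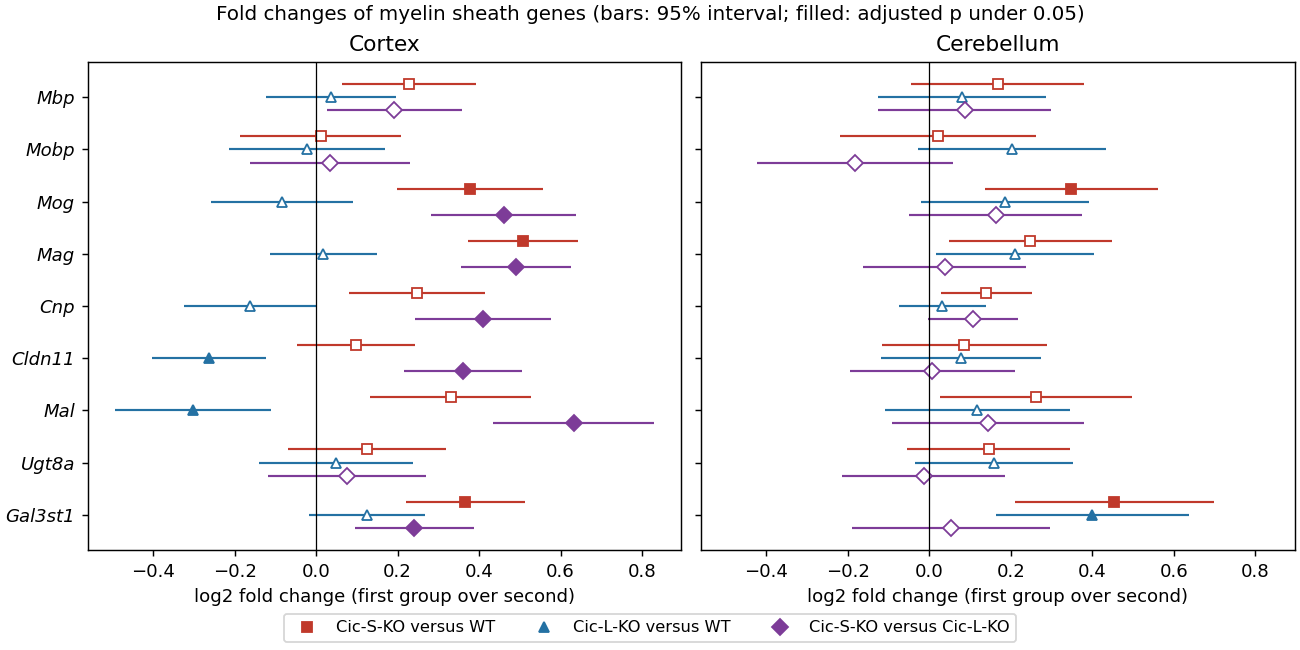
Log2 fold changes of the 9 sheath genes in cortex and cerebellum for the 3 comparisons between genotypes; horizontal bars are 95% intervals and filled symbols have an edgeR adjusted p under 0.05. Mal runs from -0.30 (Cic-L-KO over WT) to 0.63 (Cic-S-KO over Cic-L-KO) in cortex, and no difference between the knockouts is filled in cerebellum.

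In the Cic-S-KO cerebellum, Mog and Gal3st1 were higher than in WT, beside 4.34% of all 16643 tested genes called higher, 3.89% called lower and 8.23% called in all. Mog ranged from 48.7 to 79.9 CPM in WT (median 60.4) and from 70.4 to 112.2 in Cic-S-KO (median 76.5), with 1 knockout sample above all WT samples. Its log2 fold change was 0.35 (SE 0.108, edgeR adjusted p = 0.0489). Gal3st1 ranged from 6.42 to 11.8 CPM in WT (median 8.33) and from 8.95 to 16.7 in Cic-S-KO (median 10.9), with 2 of 7 knockout samples above all WT samples. Its log2 fold change was 0.45 (SE 0.125, edgeR adjusted p = 0.024). The values of both genes overlapped widely between the groups. Without Cic-S-KO replicate 6, the highest sample for all 9 genes, Mog (0.25, adjusted p = 0.126) and Gal3st1 (0.34, adjusted p = 0.0738) no longer passed. Leaving out 1 sample at a time, Mog kept its call in 3 of 15 fits and Gal3st1 in 13 of 15.

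Markers of other cell types differed between the same cerebellum groups. Of 8 neuron markers, 5 were called lower and 2 higher, and their sum ranged from 5642 to 6406 CPM in WT and from 4999 to 5776 in Cic-S-KO. Of 7 astrocyte markers, 3 were called higher and none lower, with sums from 5680 to 6411 CPM in WT and from 6221 to 6769 in Cic-S-KO. Of 4 cerebellum markers, 2 were called lower, with sums from 2550 to 3178 CPM in WT and from 1891 to 2775 in Cic-S-KO. Cic-S-KO replicate 6 had the lowest neuron and cerebellum marker sums of the 23 cerebellum libraries. The part of these markers in the result was not tested.

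Mag ranged from 166.3 to 255.3 CPM in WT cerebellum (median 187.9) and from 189.4 to 322.2 in Cic-S-KO (median 224.3), with a log2 fold change of 0.25 (95% interval 0.05 to 0.45, edgeR adjusted p = 0.134). It passed without WT replicate 1 (0.31, adjusted p = 0.0458). For Mal the log2 fold change was 0.26, for Mbp 0.17, for Ugt8a 0.15, for Cnp 0.14, for Cldn11 0.09 and for Mobp 0.02 (95% interval -0.22 to 0.26), and none of them passed. The 9 of 9 differences above 0 had a median of 0.17, and their signs are not independent, since the genes moved together between libraries. Of the listed mature oligodendrocyte genes outside the sheath, 3 of 11 were called higher (Gsn 0.44, Apod 0.36 and Cmtm5 0.18), and their sum ranged from 832.4 to 1125 CPM in WT and from 929.1 to 1380 in Cic-S-KO. With their mean level as a covariate, Mog (0.18, edgeR adjusted p = 0.0563) and Gal3st1 (0.24, adjusted p = 0.0539) did not pass.

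In the Cic-L-KO cerebellum, Gal3st1 alone was called, beside 10.9% of all genes called higher, 10.6% called lower and 21.5% called in all. This 1 of 9 is near the share called higher and below the share called in all. Gal3st1 ranged from 9.21 to 13.9 CPM (median 10.8) against 6.42 to 11.8 in WT, and 3 of 8 knockout samples lay above all WT samples (log2 fold change 0.40, SE 0.121, edgeR adjusted p = 0.0184). The call was kept in 16 of 16 fits that left out 1 sample, though with the oligodendrocyte genes as a covariate the value was 0.11 (adjusted p = 0.405). Those covariate genes were themselves higher here, with 3 of 11 called and a median log2 fold change of 0.16. The value of 0.11 is thus relative to their level. The other 8 sheath genes had log2 fold changes between 0.03 for Cnp and 0.21 for Mag. Here 4 of 5 endothelial markers were higher (Cdh5 0.64, Flt1 0.55 and Cldn5 0.68 among them), and none of them was at 0. Of 8 neuron markers, 4 were called lower and 2 higher, and of 7 astrocyte markers, 2 were called lower and 1 higher. The part of these markers in the result was not tested.

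Without a covariate, the knockouts were not told apart in cerebellum by any of the 9 genes. In edgeR 0 of 9 were called between Cic-S-KO and Cic-L-KO (adjusted p from 0.229 to 0.973), beside 12.4% of all genes (6.06% higher in Cic-S-KO and 6.38% lower), 0 had an unadjusted p under 0.05, and DESeq2 called 0. For Mag the log2 difference was 0.04 (95% interval -0.16 to 0.24), for Mal 0.14 (-0.09 to 0.38) and for Mobp -0.18 (-0.42 to 0.06). With the oligodendrocyte genes as a covariate, 4 genes were called higher in Cic-S-KO, beside 15.9% of all genes called in either direction. They were Cnp (0.15, edgeR adjusted p = 0.000514), Mog (0.23, adjusted p = 0.00218), Mbp (0.16, adjusted p = 0.00457) and Mal (0.22, adjusted p = 0.023).

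An interaction term in a fit of all 46 brain samples asked whether a knockout effect was the same in both regions. For Cic-S-KO, edgeR called 0 of 9 genes, beside 4.5% of all 18032 genes (2.01% higher and 2.5% lower), 1 gene had an unadjusted p under 0.05, and DESeq2 called 0. That gene was Mag, whose effect was greater in cortex by 0.26 on the log2 scale (SE 0.125, adjusted p = 0.244), so the cortical rise of Mag is not shown to differ from the cerebellar value. For Cic-L-KO, the effect was lower in cortex than in cerebellum for Cldn11 (-0.34, SE 0.125, edgeR adjusted p = 0.0429) and Mal (-0.42, SE 0.153, adjusted p = 0.0415). Of all genes, 11.5% were called lower, 11.5% higher and 23% in all, so 2 of 9 is near the share called in all. All 9 differences were below 0, with a median of -0.22, and their signs are not independent, since the genes moved together between libraries. Without a filter on low counts, neither Cldn11 (adjusted p = 0.101) nor Mal (adjusted p = 0.0945) passed.

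Within a group, the sheath genes moved together from library to library. Over 36 pairs of genes, the Pearson correlation of log2 levels after removing each genotype's mean had a median of 0.795 in cortex, from 0.389 for Gal3st1 with Mal to 0.954 for Mal with Mobp, and of 0.888 in cerebellum, from 0.709 to 0.948, each over 23 samples. The points share libraries and their depth scaling. Cic-S-KO replicate 1 was the highest of its group in 8 of 9 genes in cortex and replicate 6 the lowest in 8. WT replicate 1 was the highest in 8 of 9 genes in cortex and in 9 of 9 in cerebellum. In cerebellum Cic-S-KO replicate 6 was the highest and replicate 3 the lowest in 9 of 9.

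**Figure D3:**
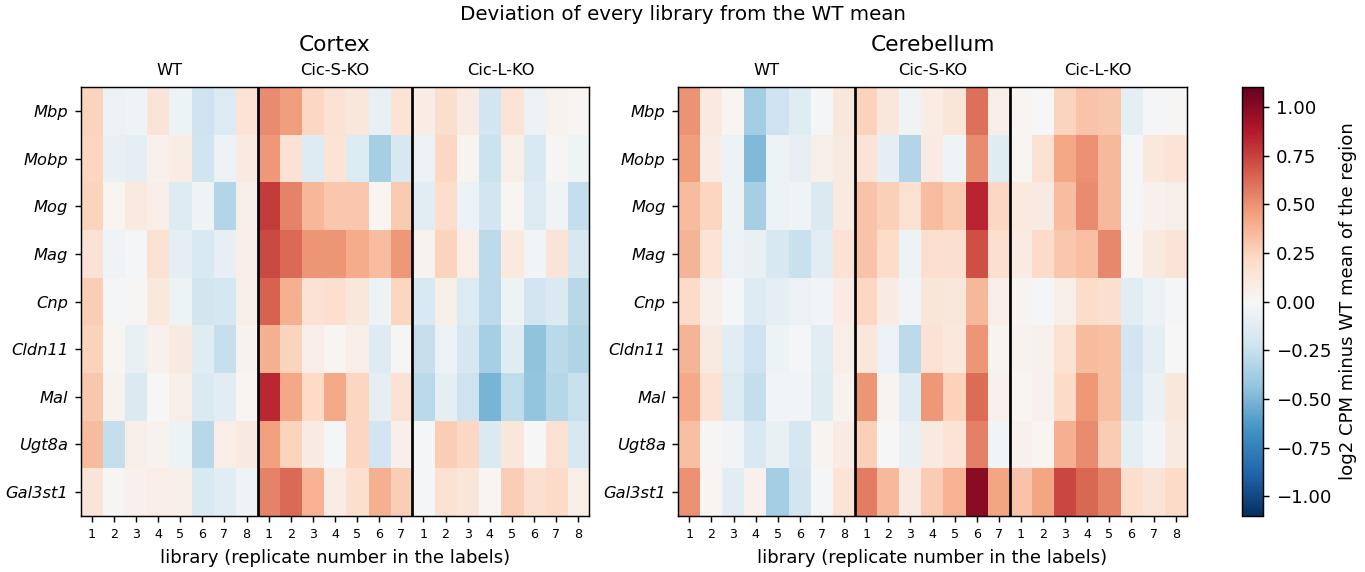
Deviation of each gene in each library from the WT mean of its region, in log2 CPM (red above, blue below), with libraries in columns by their replicate number in the labels. Single libraries such as Cic-S-KO replicate 6 in cerebellum, the highest in 9 of 9 genes, stand out in whole columns, while the Mag row is red in all 7 Cic-S-KO cortex libraries.

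Mag and Mobp, which gave the largest and the smallest change in the Cic-S-KO cortex, were set against each other within each library. This pair was chosen after the values were seen and is a description. Mag as a percentage of the CPM of Mobp ranged from 17.3% to 21.3% in WT cortex (19.6 ± 1.34, SD, n = 8), from 17.95% to 21.6% in Cic-L-KO (20.1 ± 1.23) and from 23.3% to 31.9% in Cic-S-KO (28.2 ± 3.23, n = 7). The Cic-S-KO cortex did not overlap either of the other groups. In cerebellum the ranges overlapped, from 17.2% to 25.9% in WT, 17.3% to 21.9% in Cic-L-KO and 20.8% to 24.3% in Cic-S-KO. Mag as a percentage of Mbp gave a like picture in cortex, from 5.87% to 6.50% in WT, 5.46% to 6.68% in Cic-L-KO and 6.99% to 8.34% in Cic-S-KO.

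Relative to the mean log2 level of the other 8 sheath genes, single genes shifted in the knockout cortices, while their order stayed that of WT in Cic-L-KO and differed in Cic-S-KO by an exchange of Mog and Ugt8a. In Cic-S-KO, Mag stood 0.29 higher than in WT (7 of 7 samples above all WT samples), while Mobp shifted by -0.28 and Cldn11 by -0.17 (6 of 7 samples below all WT samples for each). In Cic-L-KO, Mal shifted by -0.26 (7 of 8 below), Cldn11 by -0.22 (8 of 8 below) and Gal3st1 by 0.21 (7 of 8 above). These shifts are descriptions with no test.

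**Figure D4:**
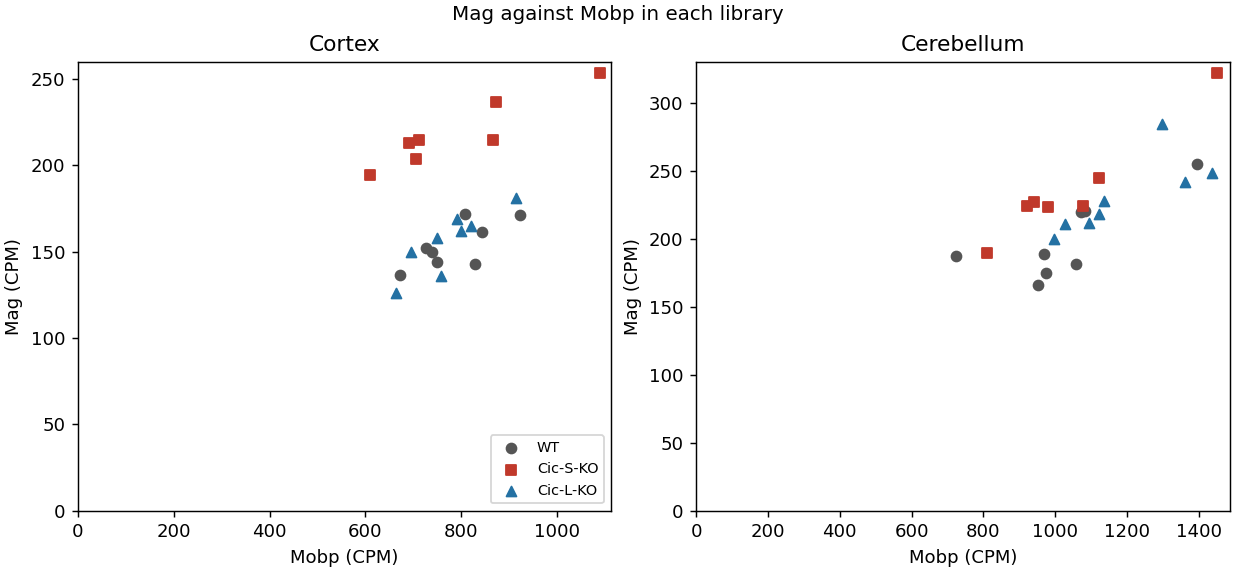
Mag against Mobp in each library of cortex and cerebellum, both in CPM on linear axes from 0, with the genotype shown by colour and symbol. In cortex the Cic-S-KO libraries lie along a steeper line (23.3% to 31.9%) than the WT libraries (17.3% to 21.3%).

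Among 12065 other genes, those with levels most like the mean standardised level of the 9 included the receptor gene Gpr37 (mean Pearson r 0.890 over cortex and cerebellum, 23 samples in each), Qdpr (0.886), Carhsp1 (0.885) and Ermn, which encodes the myelin protein ermin. The points share libraries and their depth scaling. Gpr37 stood at 88.1 ± 9.57 CPM in Cic-S-KO cortex and 74.9 ± 8.43 in WT, a log2 fold change of 0.23 (edgeR adjusted p = 0.0672), near that of Mbp and Cnp. The difference in Gpr37 between the knockout cortices was 0.30 (edgeR adjusted p = 0.0032).

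Other genes of the sheath and its lipids moved in part, in a comparison with 2.83% of all tested genes called higher and 3.70% lower. Of 11 tested genes for further myelin and paranodal proteins, 2 rose in the Cic-S-KO cortex, among them Tspan2 (0.26, edgeR adjusted p = 0.0391), which encodes a tetraspanin. Hapln2, a link protein of the matrix around the nodes, fell by 1.28 on the log2 scale, from 16.8 ± 1.29 to 6.91 ± 0.971 CPM (adjusted p = 3.29e-11). The median of the list was 0.08. Of 11 sphingolipid genes, 2 rose, the glycolipid transfer protein gene Gltp (0.25, edgeR adjusted p = 0.0114) and the fatty acid hydroxylase gene Fa2h (0.30, adjusted p = 0.0183), and Ugcg fell (-0.14, adjusted p = 0.0215). Among 16 lineage genes, 5 rose and none fell, with Sox10 (0.27), Enpp6 (0.38) and Nkx2-2 (0.44) first by adjusted p. Of 11 mature oligodendrocyte genes, Gsn rose (0.70) and Anln fell (-0.36).

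In the Cic-L-KO cortex the direction of several of these was opposite. Of all genes tested there, 21.4% were called higher and 21.9% lower, 43.2% in all, and the counts that follow lie near or below these shares. Tppp (-0.40, edgeR adjusted p = 3.98e-10), Tspan2 (-0.36, adjusted p = 0.000424) and Opalin (-0.48, adjusted p = 0.00372) fell, and Hapln2 (0.24) and Gjb1 (0.30) rose, 5 of 11 called. Of 11 sphingolipid genes, 3 rose, Sptlc1 (0.16) and Elovl1 (0.24) among them, and Ugcg fell (-0.16). Gsn rose here too (0.27, adjusted p = 0.00172), and 3 of 16 lineage genes fell (Gpr17 -0.29, Bmp4 -0.45 and Enpp6 -0.28). In cerebellum, 4.34% of all genes were called higher and 3.89% lower in Cic-S-KO, beside 10.9% and 10.6% for Cic-L-KO. There 2 of 11 further myelin genes were called higher in each knockout, with Tspan2 (0.18) among them in Cic-S-KO and Gjb1 (0.39) in Cic-L-KO. Hapln2 was lower in the Cic-S-KO cerebellum by -0.52 (edgeR adjusted p = 0.0147). Of the sphingolipid genes, Gltp (0.25) and Elovl1 (0.24) rose in the Cic-S-KO cerebellum and none was called in the Cic-L-KO cerebellum.

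In the lung, which holds no oligodendrocytes, the sheath genes served as a background level. In WT lung Mobp had 0 to 4 counts in a library and was not tested, and Mog had 9 to 22 counts, Cldn11 16 to 33, Ugt8a 15 to 76 and Mag 21 to 54. Mag was 100.9 times higher in WT cortex than in WT lung, Cldn11 127.4 times, Mbp 82.4 times and Mog 81.8 times. Gal3st1 differed little, by 1.69 times, and Mal (5.43 times) and Cnp (9.48 times) had lung levels of 45.7 ± 4.64 and 35.5 ± 2.24 CPM. These ratios span tissue, age and batch together. Among the listed markers of Schwann cells, which form myelin in peripheral nerve, Pmp2 had at most 2 counts and Egr2 at most 13 in a lung library, while Prx stood between 227.4 and 375.5 CPM. The list summed to 311.5 ± 50.1 CPM in WT lung (SD, n = 8), most of it Prx, and to 3.32 ± 1.25 in WT cortex. The part of Schwann cells in the lung levels was not tested.

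Of the 8 genes tested in lung, 3 were higher in Cic-S-KO than in WT (9.99% of all 16695 tested genes called higher, 5.73% lower and 15.7% in all). Mbp ranged from 27.0 to 33.8 CPM in WT (median 29.4) and from 33.7 to 42.4 in Cic-S-KO (median 37.2), with 7 of 8 knockout samples above all WT samples (log2 fold change 0.31, SE 0.060, edgeR adjusted p = 0.00114). Gal3st1 ranged from 5.22 to 6.74 CPM in WT and from 6.41 to 9.05 in Cic-S-KO, with 6 of 8 above (0.43, SE 0.092, edgeR adjusted p = 0.00217). It was thus called higher in Cic-S-KO in all 3 tissues, though in cerebellum the call was lost without Cic-S-KO replicate 6. Cldn11 had 1.13 ± 0.266 CPM in WT and 2.37 ± 1.13 in Cic-S-KO, 7 of 8 above (1.09, SE 0.252, adjusted p = 0.00443), and 0.83 (adjusted p = 0.0147) without Cic-S-KO replicate 5. That library had the highest Cldn11 (4.93 CPM), neuron marker sum (108.1 CPM, beside 41.6 to 74.1 in the other lung libraries) and cortex marker sum (5.15 CPM, beside 0 to 0.321), while Snap25 and Gad2 had 0 counts in at least 1 library of each lung group. The part of these in the result was not tested. The summed macrophage and microglia markers were higher in the Cic-S-KO lung, from 276.5 to 379.4 CPM beside 217.5 to 271.4 in WT, none at 0, and their part was not tested either.

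In the Cic-L-KO lung, Ugt8a alone was lower, beside 2.28% of all genes called lower, 2.62% called higher and 4.89% called in all. It stood at 0.826 ± 0.300 CPM beside 1.63 ± 0.827 in WT (log2 fold change -0.98, SE 0.283, edgeR adjusted p = 0.0415), and the call was kept in 6 of 16 fits that left out 1 library (-0.77, adjusted p = 0.0965, without WT replicate 4). It was also lost with only the compared groups, with GC content removed and with the replicate number as a block. Between the knockouts, 4 of 8 genes were higher in the Cic-S-KO lung, beside 7.31% of all genes called higher, 4.85% called lower and 12.2% in all. They were Cldn11 (1.17, edgeR adjusted p = 0.00306), Ugt8a (1.03, adjusted p = 0.0161), Mbp (0.21, adjusted p = 0.0241) and Gal3st1 (0.29, adjusted p = 0.0385). Without Cic-S-KO replicate 5, Cldn11 gave 0.91 (adjusted p = 0.0108). With 1 library left out at a time, Mbp kept its call in 11 of 16 fits and Gal3st1 in 7 of 16.

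**Figure D5:**
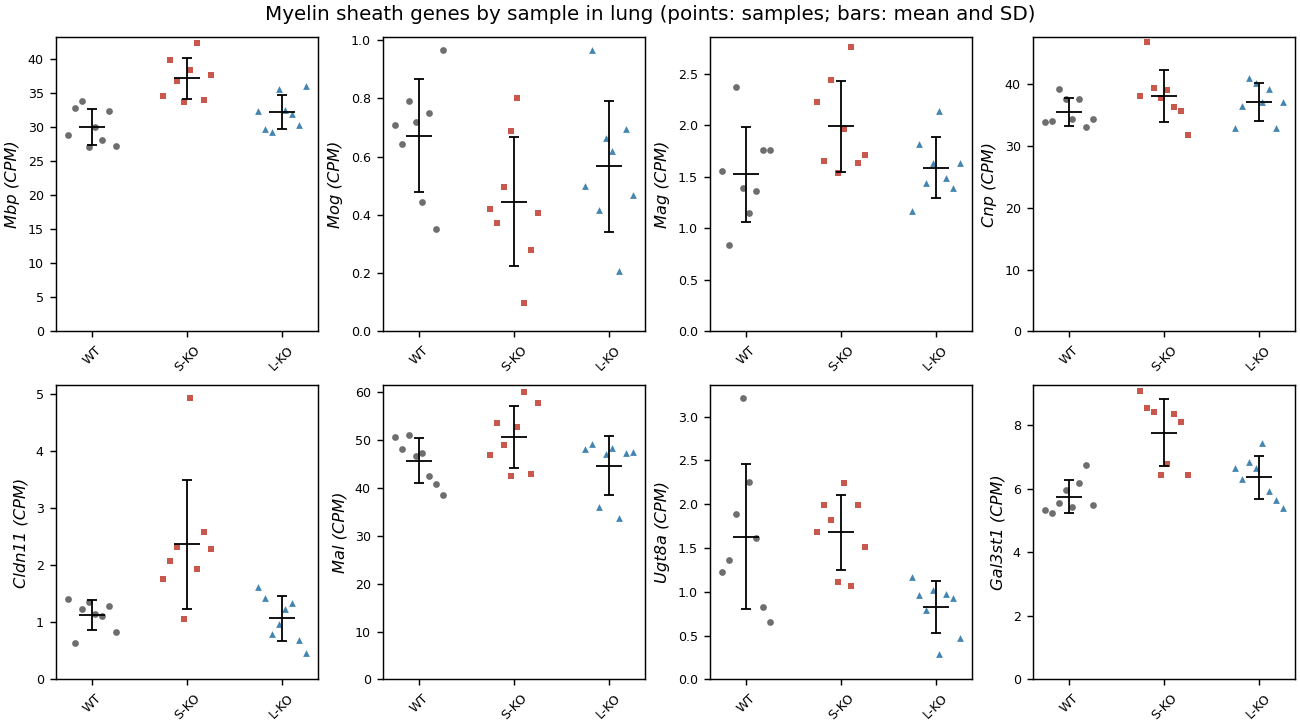
Level of 8 sheath genes in every lung sample, in CPM on linear axes that start at 0, with points for samples and bars for the mean and SD; Mobp, with at most 7 counts in a library, is left out. Mbp and Gal3st1 are higher in most Cic-S-KO samples, and a single Cic-S-KO sample sets the top of Cldn11 at 4.93 CPM.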

How the data were processed

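Total RNA was extracted from flash-frozen tissue with a miRNeasy kit and made into polyA-selected libraries, per the labels' protocols. The deposited values are the authors' raw read counts for 50789 genes, identified by versioned Ensembl numbers, in 70 columns, each of which matched the library name of 1 sample. The submitters' processing notes name STAR 2.7 and GRCm38.p6. The counter, its annotation and its use of strand are not given in the sources used here. Symbols and positions came from GENCODE M21, in which 50725 identifiers matched with the version ignored, 49135 matched with it and 64 did not match. Promoter windows came from RefSeq. Over 238 pairs of libraries of a group, 0 were identical and the lowest chi-square per degree of freedom was 4.17, so each library counted as 1 replicate. The labels do not say whether replicates came from separate animals. The p-values set the difference between groups against the spread between these samples, and would be too small if libraries of a group shared an animal.

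Counts were tested with edgeR 4.0.16 in R 4.3.3, with filterByExpr, TMM scaling and a robust quasi-likelihood fit of the 3 genotypes of a tissue (16974 genes in cortex, 16643 in cerebellum, 16695 in lung) or of all 46 brain samples (18032 genes) for the contrasts between regions. Calls were at a Benjamini-Hochberg adjusted p under 0.05 over all genes tested. Standard errors came from the F statistic, CPM are TMM-normalised, and log2 CPM has a prior count of 2. The depth of 17798655 to 35523037 counted reads gave the genes listed at 0 or a few counts no test. The script was tested on simulated counts first.

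The 9 genes and all marker and pathway lists were chosen with earlier results of these data known. Named genes were drawn from the 9 members, Cic, up to 3 genes of each other list with the smallest adjusted p in a comparison, and the 5 genes most like the members. Of the listed genes, 6 are not analysed here, and some others are not reported here. Alternatives were DESeq2 1.42.0, RLE scaling, leaving out the low-count filter, requiring a mean of 50 counts or more, only the compared groups, a minimum absolute log2 fold change of 0.5, Y-linked expression as a covariate, a GC correction in 20 bins, and the replicate number as a block. Leaving out each library in turn and the mean log2 level of the oligodendrocyte genes as a covariate were added after the data had been seen.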

Additional observations from a re-analysis of the deposited data

Results flagged for a closer look

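Among 78 sets of values (1 gene in 1 group), 5 held a sample whose gap to its nearest neighbour was large for the range of its group, where chance alone gives about 3.9 (1 in 20). Of these, 3 were the same library, Cic-S-KO replicate 6 of the cerebellum, with Mbp at 5615 CPM (next highest 4408), Mog at 112.2 (next 79.4) and Mag at 322.2 (next 245.1). Cldn11 stood at 4.929 CPM in Cic-S-KO replicate 5 of the lung (next 2.591). Mal stood at 303.4 CPM in WT replicate 1 of the cortex (next 258.5).

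The effect of Cic-L-KO differed between cortex and cerebellum for Cldn11 by -0.34 on the log2 scale (edgeR adjusted p = 0.0429) and for Mal by -0.419 (adjusted p = 0.0415). Both genes fell in the Cic-L-KO cortex and gave 0.08 and 0.12 in the cerebellum, where neither passed.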

How the results depend on the processing

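Counts below are of sheath genes called by edgeR. A minimum absolute log2 fold change of 0.5 left 1 of 3 in the Cic-S-KO cortex, 0 of 2 in the Cic-L-KO cortex and 1 of 6 between the knockout cortices. It left 0 of 2 in the Cic-S-KO and 0 of 1 in the Cic-L-KO cerebellum, 1 of 3 in the Cic-S-KO lung, 2 of 4 between the knockout lungs, 0 of 2 for the Cic-L-KO interaction and 3 of 8 between the WT regions. In the Cic-S-KO cortex the count was 6 with DESeq2, 5 with a mean of at least 50 counts and 5 with Y-linked expression as a covariate. In the Cic-S-KO cerebellum it was 0 without the low-count filter, 1 with only the compared groups, 1 with the Y-linked covariate and 0 with the oligodendrocyte covariate, which gave 3 in the Cic-L-KO cerebellum and 4 between the knockouts there in place of 0. Under that covariate the direction reversed in the Cic-L-KO cerebellum for Mbp (-0.168), Cnp (-0.108) and Cldn11 (-0.161). The covariate genes were themselves higher there (median log2 fold change 0.16), so these values are relative to their level. For the Cic-L-KO interaction the count was 0 without the filter. In the Cic-L-KO lung it was 0 with only the compared groups and with GC content removed, and between the knockout lungs 2 without the filter. The cause of these changes was not tested. With a mean of at least 50 counts, 4 of the genes were tested in lung and Cldn11 and Ugt8a were not among them, so the counts of 0 in the Cic-L-KO lung and 2 between the knockout lungs are calls on fewer genes. Leaving out 1 library at a time gave 3 to 5 calls in the Cic-S-KO cortex, 2 to 2 in the Cic-L-KO cortex, 6 to 7 between them, 0 to 4, 1 to 2 and 0 to 0 in the same order in cerebellum, and 3 to 3, 0 to 1 and 2 to 4 in lung. Over all genes, the Cic-S-KO cortex gave 1108 calls, and 732 without the filter, 654 with only the compared groups and 449 with GC content removed.

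Same-numbered cortex and cerebellum samples correlated over 0.1 in 16 of 23 pairs (mean 0.138), and 10 of 23 correlated best with their own number. In Cic-S-KO 7 of 7 pairs were over 0.1 (0.152 to 0.257) and 6 were best with their own number, in WT 7 of 8 and 3, and in Cic-L-KO 2 of 8 and 1. This is a hint from the data that numbers may pair the regions in Cic-S-KO and in part in WT, which the labels do not state. Within a tissue, no pair of genotypes had every correlation over 0.1. In lung, same-numbered WT and Cic-L-KO samples were best with their own number in 6 of 8 pairs (mean 0.16). It was 4 of 8 for WT and Cic-S-KO (0.141) and 2 of 8 between the knockouts (0.136). Numbers may thus pair WT with the knockouts in lung, which the labels do not state. The main lung tests used no block. With the replicate block, 3339 genes in place of 2624 were called in the Cic-S-KO lung. In the Cic-L-KO lung, 1285 were called in place of 817. In the brain Cic-S-KO groups, replicate numbers after the first run 1 below the numbers in the library names, unlike in WT and Cic-L-KO. Pairing of genotypes by library number was thus not tested there, by these correlations or by the block. With the replicate block the counts were 4, 2 and 7 in cortex, 0, 1 and 0 in cerebellum and 3, 0 and 4 in lung (Cic-S-KO, Cic-L-KO and the difference between them), 0 and 2 for the Cic-S-KO and Cic-L-KO interactions, and 8 between the WT regions. In the block fit Mog (adjusted p = 0.139) and Gal3st1 (adjusted p = 0.0831) in the Cic-S-KO cerebellum and Ugt8a (adjusted p = 0.0545) in the Cic-L-KO lung were not called.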

Other observations

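Genes most like the sheath genes after each genotype's mean was removed included Bcas1 (mean Pearson r 0.925 over both regions, 23 samples each), Prr18 (0.918), Tmem88b (0.905) and Ermn (0.898). Ermn was among the first 5 with the means kept as well. The points share libraries and depth scaling.

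When a cortex sample was set against the cerebellum sample with its genotype and number, the deviations of the sheath genes correlated weakly over 23 pairs, with Pearson r from -0.095 for Mog to 0.205 for Gal3st1. The library highest in 9 of 9 genes in the Cic-S-KO cerebellum, replicate 6, carries the number of the cortex library that was lowest in 8 of 9.

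Gsn, the gene for the actin-severing protein gelsolin, was higher in both knockouts and both brain regions, with log2 fold changes over WT of 0.70 and 0.27 in cortex and 0.44 and 0.45 in cerebellum for Cic-S-KO and Cic-L-KO in turn. These comparisons share their WT samples within a region. Levels in Cic-S-KO and WT cortex were 96.8 ± 10.4 and 59.6 ± 6.61 CPM.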
